A study of Mus musculus with 24 samples.

Results

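The 8 genes described here encode the growth factor M-CSF (Csf1), its receptor (Csf1r), the chains of the GM-CSF receptor and its relative (Csf2ra, Csf2rb, Csf2rb2), the G-CSF receptor (Csf3r) and the pair of signalling receptors for TGF-beta (Tgfbr1, Tgfbr2). They were chosen by name, as a list of colony-stimulating factor ligands and receptors to which the TGF-beta receptors were added, and all 8 were found among the 43430 gene IDs of the count table. The libraries came from alveolar macrophages sorted from C57BL/6J mouse lungs, and fell into 6 groups with 4 libraries apiece. Young animals were 8 to 12 weeks old and old animals over 18 months, per the sample labels. Naive lungs gave 1 sort, Siglec F-high, at each age (young naive Siglec F-high and old naive Siglec F-high). Lungs taken 28 days after asbestos, a mineral fibre that scars the lung, gave both a Siglec F-high and a Siglec F-low sort at each age. Siglec F is a surface lectin that resident alveolar macrophages of the mouse carry, and the series text speaks of tissue-resident and monocyte-derived cells, which the sample labels name only by Siglec F. There was no Siglec F-low sort from naive lungs, so that sort and asbestos were not crossed. Nothing in the labels says whether the 4 libraries of a group came from separate animals or pools, so the p-values measure the spread between these libraries.

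GM-CSF, made largely by the lung epithelium, is needed for alveolar macrophages to mature and to persist. It binds the alpha chain Csf2ra, which signals through the common beta chain Csf2rb and JAK2 to STAT5. The mouse has another beta chain, Csf2rb2, which serves IL-3. M-CSF and IL-34 act through the tyrosine kinase Csf1r, which keeps monocytes and most tissue macrophages alive and dividing. TGF-beta binds Tgfbr2, which activates Tgfbr1 and with it the SMAD transcription factors, and alveolar macrophages depend on this signal as well. G-CSF acts through Csf3r, best known on neutrophils.

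Of the 24 libraries, 22 held 13423080 to 18124526 counts and had a correlation of 0.971 to 0.993 with the mean of their group's other libraries, taken over genes, which are no independent replicates. Replicate 3 of old asbestos Siglec F-high stood apart with 3894699 counts, 35.6% of them on Gm42418, a gene model that overlaps ribosomal RNA, against 0.136 to 0.357% in the 22. Replicate 3 of young asbestos Siglec F-high stood apart with 12528 genes detected, against 17069 to 18820. Fold changes of the 8 genes are therefore given with all 24 libraries and again with the 22. Siglecf, which encodes the sort marker, was lower in the Siglec F-low sorts, with a log2 fold change of -0.67 ± 0.14 (SE) in young and -1.35 ± 0.14 in old animals (edgeR adjusted p 0.00443 and 3.84e-06).

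Values are counts per 1000000 counts of the library (CPM) after TMM scaling. In young naive Siglec F-high macrophages Csf1 stood at 1.34, 1.40, 1.31 and 1.95 CPM in replicates 1 to 4. In old naive Siglec F-high macrophages it stood at 1.87, 2.58, 1.77 and 2.49 CPM. The naive groups overlapped, and both were near the bottom of the range of Csf1. Young asbestos Siglec F-high libraries held 4.02, 4.03, 0.967 and 3.06 CPM, the low value being that of the outlying replicate 3, which had 10 counts. Old asbestos Siglec F-high libraries held 5.24, 7.09, 11.4 and 10.3 CPM, and here the outlying replicate 3 was the highest, on 14 counts. Every old asbestos Siglec F-high library was above every young one. Young asbestos Siglec F-low libraries held 21.3, 30.4, 31.9 and 26.5 CPM. Old asbestos Siglec F-low libraries held 33.7, 31.7, 46.6 and 57.4 CPM. Both Siglec F-low groups were above every Siglec F-high library, and the 2 overlapped with each other by a narrow margin. For this and the other genes with groups that lay wholly higher, the share of all tested genes that did so is not reported here.

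Csf1 was thus the gene of the 8 with the widest range, 43.7-fold between the lowest and the highest of the 22 libraries. It was 8.84-fold higher in Siglec F-low than in Siglec F-high macrophages of young asbestos lungs, a log2 fold change of 3.14 ± 0.30 (SE; edgeR quasi-likelihood test, adjusted p = 7.83e-07), and 7.39-fold higher with 22 libraries (adjusted p = 2.65e-08). In old asbestos lungs it was 5.31-fold higher in Siglec F-low macrophages, a log2 fold change of 2.41 ± 0.30 (adjusted p = 3.1e-05), and 5.64-fold higher with 22 (adjusted p = 9.76e-08). Both differences passed the test with each of the 24 libraries left out in turn. The 2 ages were not shown to differ in it, since the interaction of age and sort was -0.74 on the log2 scale (95% interval -1.58 to 0.11, adjusted p = 0.761) and -0.39 with 22 libraries (-1.04 to 0.26, adjusted p = 0.897).

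Within the Siglec F-high sort, Csf1 was higher after asbestos than in naive lungs. In old animals the rise was 3.66-fold, a log2 fold change of 1.87 ± 0.32 (adjusted p = 0.00386), and 3.44-fold with 22 libraries (adjusted p = 0.000206). In young animals the log2 fold change was 1.05 ± 0.32 and did not pass the test with all libraries (adjusted p = 0.104). Without the outlying libraries it was 1.30 ± 0.29 and passed (adjusted p = 0.00814), as it did with only young asbestos Siglec F-high replicate 3 left out (1.31, adjusted p = 0.0106). The interaction of age and asbestos was 0.82 (95% interval -0.12 to 1.76, adjusted p = 0.587) and 0.48 with 22 libraries (-0.34 to 1.29, adjusted p = 0.998). These comparisons use the same asbestos Siglec F-high libraries as the comparisons of the sorts, and are not independent of them.

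Age alone moved Csf1 in the asbestos Siglec F-high sort, where it was 2.56-fold higher in old animals, a log2 fold change of 1.36 ± 0.31 (adjusted p = 0.0142), and 2.02-fold with 22 libraries (adjusted p = 0.0170). That call was lost without replicate 4 of old asbestos Siglec F-high (log2 fold change 1.18, adjusted p = 0.0698). In the Siglec F-low sort the difference with age was 0.62 ± 0.27 on the log2 scale and did not pass with all libraries (adjusted p = 0.503), but it passed with 22 (0.63 ± 0.18, adjusted p = 0.0353). In naive lungs it was 0.53 ± 0.33 (adjusted p = 0.852; with 22, 0.54 ± 0.29, adjusted p = 0.308). Ordered by their means over the 22 libraries, the groups ran from old Siglec F-low at 42.3 CPM through young Siglec F-low at 27.5, old asbestos Siglec F-high at 7.53, young asbestos Siglec F-high at 3.70 and old naive at 2.17 to young naive at 1.5. The first pair and the last pair of neighbours in that order overlapped.

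**Figure D1:**
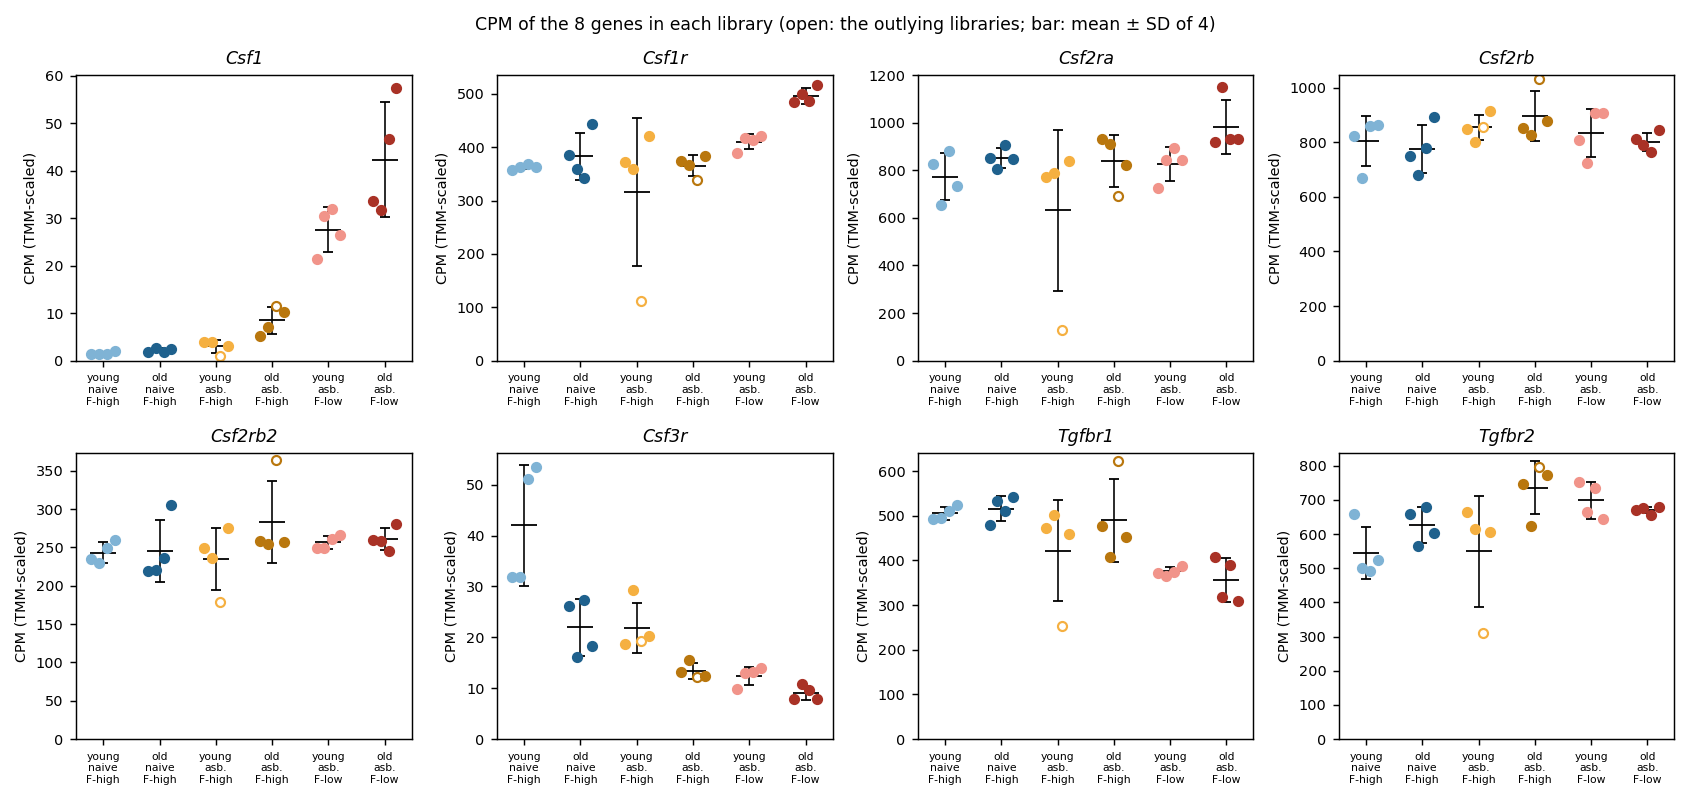
CPM of the 8 genes (y axes, from 0) in each library of the 6 groups (x axis; asb., asbestos; F-high and F-low, the Siglec F sorts); open circles are the 2 outlying libraries and bars the mean ± SD of 4. Csf1 runs from 0.967 CPM in the outlying young asbestos Siglec F-high library to 57.4 in an old Siglec F-low library. Csf3r runs from 53.5 down to 7.84, and the other 6 genes stay within 1.8-fold in the 22 libraries.

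The gene lies on chromosome 3 at 107741048 to 107760469 on the minus strand of GRCm38 (ENSMUSG00000014599, GENCODE M21). Its proximal promoter is shown because Csf1 was the member that differed most between groups. The bases before its start are those of RefSeq on GRCm38.p6, chr3:107760470-107760719, minus strand.
Csf1 promoter: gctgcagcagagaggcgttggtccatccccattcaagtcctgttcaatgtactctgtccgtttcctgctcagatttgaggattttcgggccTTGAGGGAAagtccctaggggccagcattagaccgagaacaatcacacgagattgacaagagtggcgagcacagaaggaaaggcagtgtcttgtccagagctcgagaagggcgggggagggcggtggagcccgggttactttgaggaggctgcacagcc
The capitals mark its 1 match to the pattern TTNCNNNAA, searched on both strands, which begins 159 bases before the start. Such a match occurs in 32.9% of 32851 mouse promoters of that length. The AP-1 motif TGANTCA and the PU.1 motif GAGGAAGT had no match there, and occur in 6.75% and 2.44% of promoters. A match describes letters only.

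Most listed markers of monocyte-derived macrophages were, like Csf1, higher in the Siglec F-low than in the Siglec F-high sort of asbestos lungs. Of 16 listed markers, all tested, 10 were higher in Siglec F-low than in Siglec F-high macrophages of young asbestos lungs and 11 in those of old ones, where 4.99% and 4.30% of all genes passed in either direction, with median log2 fold changes of 1.91 and 1.81 beside 0.004 and -0.004 over all genes. Their summed level was 1815 to 2863 CPM in the naive groups, 3063 to 4943 in the asbestos Siglec F-high groups and 7985 to 11829 in the Siglec F-low groups, and none of the 16 was at 0 in any group. After asbestos, 5 of the 16 were higher and 2 lower in young Siglec F-high macrophages (1.90% of all genes passed). In old ones 3 were higher and 0 lower (0.780%). With age in asbestos Siglec F-high macrophages, 4 were higher and 1 lower (4.76%). The 14 resident macrophage markers also had a higher sum in the Siglec F-low groups, 38284 to 68843 CPM, than in the naive groups, 17173 to 22693 CPM. In bulk samples, more cells of a type and more RNA per cell cannot be told apart, and the part of cell composition in the Csf1 difference was not tested.

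Ligands other than M-CSF had few counts. Csf2, which encodes GM-CSF, had 22 counts in 11 of the 24 libraries and never more than 0.497 CPM. Csf3, which encodes G-CSF, had 5 counts in 3 libraries. Il34, the other ligand of Csf1r, had 14 counts in 10 libraries and never more than 3 in a library. Its highest value, 1.63 CPM, was that of the outlying old asbestos Siglec F-high replicate 3, which had few counts in all. Il5 had 8 counts in 5 libraries and Il3 had none in 24. These 5 genes were below the filter on low counts and were not tested. Of these 6 ligands, Csf1 alone could be compared between groups.

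Csf3r, the G-CSF receptor, was highest where Csf1 was lowest. Young naive Siglec F-high libraries held 31.8, 31.8, 51.1 and 53.5 CPM. Old naive libraries held 26.1, 16.2, 27.4 and 18.3 CPM, all below the young ones. Young asbestos Siglec F-high libraries held 18.7, 29.2, 19.2 and 20.2 CPM, also below every young naive library. Old asbestos Siglec F-high libraries held 13.1, 15.6, 12.3 and 12.4 CPM. Young Siglec F-low libraries held 9.85, 12.9, 13.1 and 13.9 CPM. Old Siglec F-low libraries held 7.88, 10.9, 9.57 and 7.84 CPM, the lowest group. In 6 of the 7 comparisons the old, the asbestos or the Siglec F-low group lay wholly below the other, the exception being age within the Siglec F-low sort. Of all tested genes, 5.0% lay wholly lower for age in naive lungs, 3.78% for age in asbestos Siglec F-high, 4.78% and 3.84% for asbestos in young and old animals, and 4.0% and 6.95% for the sorts in young and old animals, beside 6.56% for age in Siglec F-low.

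By the test, Csf3r fell with age in naive macrophages, to 0.52 of the young level (log2 fold change -0.94 ± 0.20, adjusted p = 0.0117; with 22 libraries -0.93 ± 0.19, adjusted p = 0.00246). It also fell after asbestos in young Siglec F-high macrophages (-0.94 ± 0.20, adjusted p = 0.0166; with 22, -0.89 ± 0.21, adjusted p = 0.0122). It was lower in Siglec F-low than in Siglec F-high macrophages of young asbestos lungs (-0.81 ± 0.21, adjusted p = 0.0220; with 22, -0.87 ± 0.21, adjusted p = 0.00801). The first 2 comparisons share the young naive libraries, and the last 2 share the young asbestos Siglec F-high libraries.

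The remaining differences of Csf3r had the same sign and did not pass the test. Old against young asbestos Siglec F-high gave -0.70 ± 0.21 (adjusted p = 0.0595; with 22, -0.72, adjusted p = 0.0585), asbestos against naive in old animals -0.70 ± 0.21 (adjusted p = 0.172; with 22, -0.68, adjusted p = 0.0831), the Siglec F-low sort against the F-high one in old animals -0.58 ± 0.22 (adjusted p = 0.168; with 22, -0.61, adjusted p = 0.0901), and old against young Siglec F-low -0.46 ± 0.21 (adjusted p = 0.561; with 22, -0.46, adjusted p = 0.218). The sort difference in old animals passed when the replicate number was added as a block to the 22 libraries (-0.68, edgeR adjusted p = 0.0431). There the same-numbered old asbestos libraries of the 2 sorts had deviations that correlated at 0.150, 0.189 and 0.205. With all 24 libraries, replicates 2 of young naive and old asbestos Siglec F-high, which cannot share an animal, reached 0.243. The interaction of age and asbestos was 0.24 (95% interval -0.37 to 0.85, adjusted p = 0.781; with 22, 0.21, adjusted p = 0.998), so the fall after asbestos was not shown to differ with age. Single libraries decided the 3 calls of Csf3r and could add 1 more, since the age difference in asbestos Siglec F-high macrophages passed without young replicate 1 or 4 (adjusted p 0.0387 and 0.0463). The naive age difference was lost without young naive replicate 3 or 4 or old naive replicate 2 or 4 (adjusted p 0.0635 to 0.0796), the asbestos difference in young animals without young naive replicate 3 or 4 or young asbestos Siglec F-high replicate 1 (0.0516 to 0.0891), and the sort difference without young asbestos Siglec F-high replicate 2 or young Siglec F-low replicate 1, 2 or 3 (0.0540 to 0.0990).

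The 11 listed neutrophil markers, which do not include Csf3r, summed to 32 to 39.4 CPM in young naive libraries, where Csf3r was highest, and to 77.6 to 101 CPM in the Siglec F-low sorts, where it was lowest. Ly6g, a defining neutrophil marker, was at 0 in 5 of the 6 groups and averaged 0.0312 CPM in old Siglec F-low macrophages. Camp and Stfa2l1 were also at 0 in young asbestos Siglec F-high macrophages, and Stfa2l1 was at 0 in young naive ones as well. Of the 11 markers, 6 had enough counts to be tested, and the part of neutrophils in the level of Csf3r was not tested.

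Csf3r lies on chromosome 4 at 126024550 to 126044440 on the plus strand (ENSMUSG00000028859). Its promoter is printed as that of the other member whose level differed with age, asbestos and sort, from RefSeq on GRCm38.p6, chr4:126024409-126024549, plus strand.
Csf3r promoter: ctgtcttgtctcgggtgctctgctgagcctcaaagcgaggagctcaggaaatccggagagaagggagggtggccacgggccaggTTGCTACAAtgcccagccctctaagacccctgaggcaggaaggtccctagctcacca
The capitals again mark 1 match to TTNCNNNAA, which begins 57 bases before the start. Such a match is held by 22% of promoters in a window of this length. TGANTCA and GAGGAAGT had no match, and occur in 3.70% and 1.17% of windows of that length.

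Csf1r, the receptor of M-CSF, was at a high and even level. Young naive libraries held 357, 363, 369 and 363 CPM, and old naive libraries 385, 359, 343 and 444 CPM. Young asbestos Siglec F-high libraries held 372, 359, 113 and 421 CPM, the low one being the outlying replicate 3. Old asbestos Siglec F-high libraries held 375, 367, 338 and 383 CPM. Young Siglec F-low libraries held 389, 418, 414 and 421 CPM. Old Siglec F-low libraries held 484, 500, 486 and 516 CPM, above all the other libraries. Over the 22 libraries the range was 343 to 516 CPM, or 1.5-fold.

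None of the 7 comparisons was called for Csf1r by edgeR with all libraries, and none had an unadjusted p under 0.05 (DESeq2 called 0 as well). With 22 libraries, 2 were called, both by the high old Siglec F-low group. Csf1r was then 1.32-fold higher in Siglec F-low than in Siglec F-high macrophages of old asbestos lungs (log2 fold change 0.40 ± 0.07, adjusted p = 0.000732; with 24, 0.44 ± 0.22, adjusted p = 0.363). It was 1.21-fold higher in old than in young Siglec F-low macrophages (0.28 ± 0.07, adjusted p = 0.0125; with 24, 0.27 ± 0.22, adjusted p = 1.0). Both calls also appeared with only young asbestos Siglec F-high replicate 3 left out (adjusted p 0.000534 and 0.0427). The interaction of age and sort was 0.30 with 22 libraries (95% interval 0.09 to 0.52, adjusted p = 0.570). Csf1r lies on chromosome 18 at 61100598 to 61132149 (ENSMUSG00000024621) and shares 873 exonic bases with Hmgxb3 on the opposite strand. The strand setting of the counting is not given in the sources used here, so reads from that stretch cannot be assigned to one of the 2 genes.

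Csf2ra, which binds GM-CSF, was the most abundant of the 8 genes per length. Young naive libraries held 825, 653, 880 and 736 CPM, and old naive libraries 850, 806, 905 and 846 CPM. Young asbestos Siglec F-high libraries held 773, 787, 127 and 838 CPM, again with the low value in the outlying replicate 3. Old asbestos Siglec F-high libraries held 932, 911, 692 and 823 CPM. Young Siglec F-low libraries held 726, 842, 894 and 843 CPM, and old Siglec F-low libraries 917, 1151, 931 and 932 CPM. Only age within the Siglec F-low sort separated 2 groups without overlap, at a log2 fold change of 0.25 ± 0.31 (adjusted p = 1.0; with 22, 0.25 ± 0.09, adjusted p = 0.0856). No comparison of Csf2ra passed in either fit, and its differences between the sorts, 0.05 in young animals (95% interval -0.15 to 0.24) and 0.14 in old ones (-0.06 to 0.34) with 22 libraries, lay within bounds of 0.34 on the log2 scale.

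Csf2rb, the common beta chain, was between 669 and 914 CPM in the 22 libraries, a range of 1.37-fold. Its group means were 804 ± 91.5 (SD, n = 4) in young naive, 776 ± 87.9 in old naive, 855 ± 45.9 in young asbestos Siglec F-high, 896 ± 91.4 in old asbestos Siglec F-high, 836 ± 88.1 in young Siglec F-low and 803 ± 33.1 CPM in old Siglec F-low macrophages. Ordered by their means over the 22 libraries, every pair of neighbouring groups overlapped. Unlike Csf1r and Csf2ra, it was not low in the outlying young library, which held 855 CPM.

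Csf2rb2, the beta chain used by IL-3, was between 219 and 306 CPM in the 22 libraries, or 1.39-fold. Its means were 243 ± 13.6 (SD, n = 4) in young naive and 246 ± 40.9 in old naive libraries, 235 ± 41.1 and 284 ± 53.9 in young and old asbestos Siglec F-high ones, and 257 ± 8.29 and 261 ± 14.2 CPM in young and old Siglec F-low ones. Csf2rb and Csf2rb2 passed in none of the 7 comparisons with edgeR at 24 or 22 libraries or with DESeq2, and neither had an unadjusted p under 0.05. With 22 libraries all 95% intervals of Csf2rb lay between -0.29 and 0.33 on the log2 scale, and those of Csf2rb2 between -0.17 and 0.25. The beta chain genes are neighbours on chromosome 15, Csf2rb at 78325752 to 78353847 and Csf2rb2 at 78282507 to 78305721. Of the 75-base windows of their transcripts, 7.15% in Csf2rb and 10.6% in Csf2rb2 are identical in the other gene. Of the 50-base windows, 12.3% and 18.4% are. A read that matches both genes cannot be assigned by its sequence, and how such reads were counted is not given in the sources used here.

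Tgfbr1, the signalling chain of the TGF-beta receptor, was lowest in the Siglec F-low sorts. Young naive libraries held 493, 495, 511 and 523 CPM and old naive libraries 478, 534, 510 and 541 CPM. Young asbestos Siglec F-high libraries held 473, 502, 253 and 459 CPM, and old ones 477, 408, 622 and 451 CPM. The outlying replicates 3 were the lowest and the highest of these groups. Young Siglec F-low libraries held 372, 366, 375 and 388 CPM, and old ones 407, 317, 391 and 309 CPM. With 22 libraries, every Siglec F-low library was below every Siglec F-high library, though in old animals only by 407 against 408 CPM. With all 24, the sorts stayed apart in old animals only, where 6.95% of all tested genes lay wholly lower. That share is not reported here for 22 libraries.

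With all 24 libraries the difference between the sorts did not pass the test in young (log2 fold change -0.17 ± 0.16, adjusted p = 0.580) or old animals (-0.46 ± 0.16, adjusted p = 0.130). With 22 it passed in both, at -0.35 ± 0.08 in young (0.78 of the Siglec F-high level, adjusted p = 0.00602) and -0.33 ± 0.08 in old animals (0.80, adjusted p = 0.0100). The call in old animals also appeared when only young asbestos Siglec F-high replicate 3 was left out (adjusted p = 0.00573). Neither age nor asbestos moved Tgfbr1 past the test.

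Tgfbr2, the chain that binds TGF-beta, showed no such order. Young naive libraries held 658, 502, 492 and 525 CPM and old naive libraries 658, 565, 679 and 603 CPM. Young asbestos Siglec F-high libraries held 665, 616, 310 and 607 CPM, and old ones 747, 623, 797 and 774 CPM. Young Siglec F-low libraries held 753, 663, 735 and 643 CPM, and old ones 669, 675, 657 and 679 CPM. The groups formed 1 overlapping range of 492 to 774 CPM in the 22 libraries. No comparison passed with edgeR at 24 or 22 libraries or with DESeq2, and 2 of 7 had an unadjusted p under 0.05 with each set of libraries. The nearest with all libraries was age in asbestos Siglec F-high macrophages, at 0.42 ± 0.16 on the log2 scale (adjusted p = 0.115), which was 0.19 ± 0.10 with 22 (adjusted p = 0.286).

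**Figure D2:**
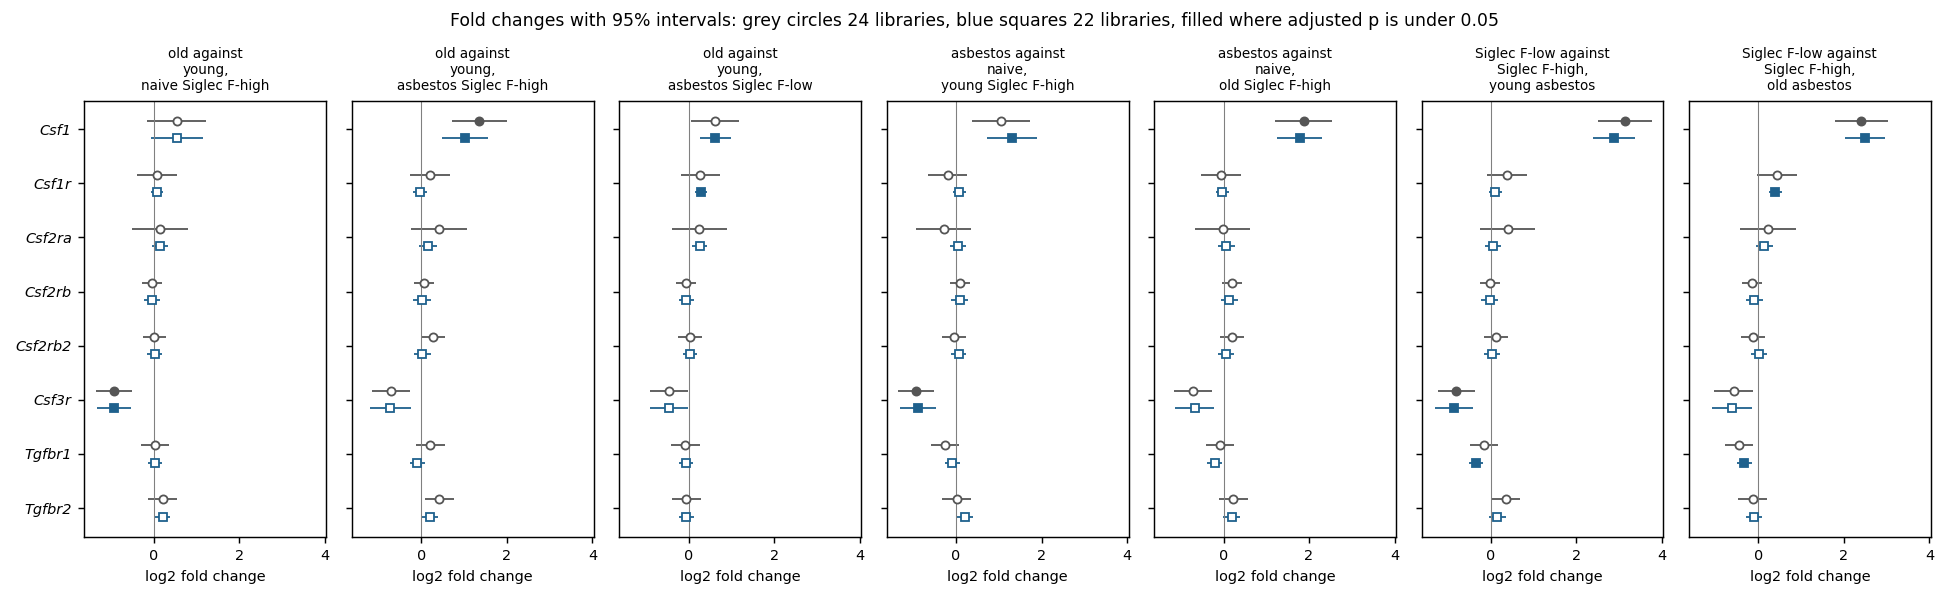
Log2 fold changes (x axis) of the 8 genes (y axis) in the 7 comparisons of 2 groups, with 95% intervals; grey circles are 24 libraries, blue squares 22, and filled symbols passed the test at an adjusted p under 0.05. Csf1 lies to the right of 0, up to 3.14, and Csf3r to the left, down to -0.94, in all 7 panels, and the intervals of the other genes are narrower without the outlying libraries, with Csf1r and Tgfbr1 filled for 22 libraries in 2 panels each.

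Counted over the 8 genes, 1 passed in the comparison of old with young naive macrophages (Csf3r, lower; 2.03% of all tested genes passed there), 1 in old against young asbestos Siglec F-high (Csf1, higher; 4.76%) and 0 in old against young Siglec F-low (1.29%), where 2 had an unadjusted p under 0.05 and DESeq2 called 0. After asbestos, 1 passed in young (Csf3r, lower; 1.90%) and 1 in old Siglec F-high macrophages (Csf1, higher; 0.780%). Between the sorts, 2 passed in young (4.99%) and 1 in old animals (4.30%). With 22 libraries the counts in the same order were 1 (8.03%), 1 (7.32%), 2 (7.21%), 2 (5.06%), 1 (4.12%), 3 (12.0%) and 3 (11.6%). The median log2 fold change of the 8 genes lay between -0.12 and 0.24 with all libraries and between -0.04 and 0.07 with 22, beside medians of -0.01 to 0.04 and -0.01 to 0.01 over all genes. In neither interaction with age did a member pass with edgeR at 24 or 22 libraries or with DESeq2 (edgeR called 0.0147% of all genes in each with 22 libraries and 0% with 24). The members with an unadjusted p under 0.05 there were 0 with 24 libraries and, with 22, Csf1r alone for age and sort.

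**Figure D3:**
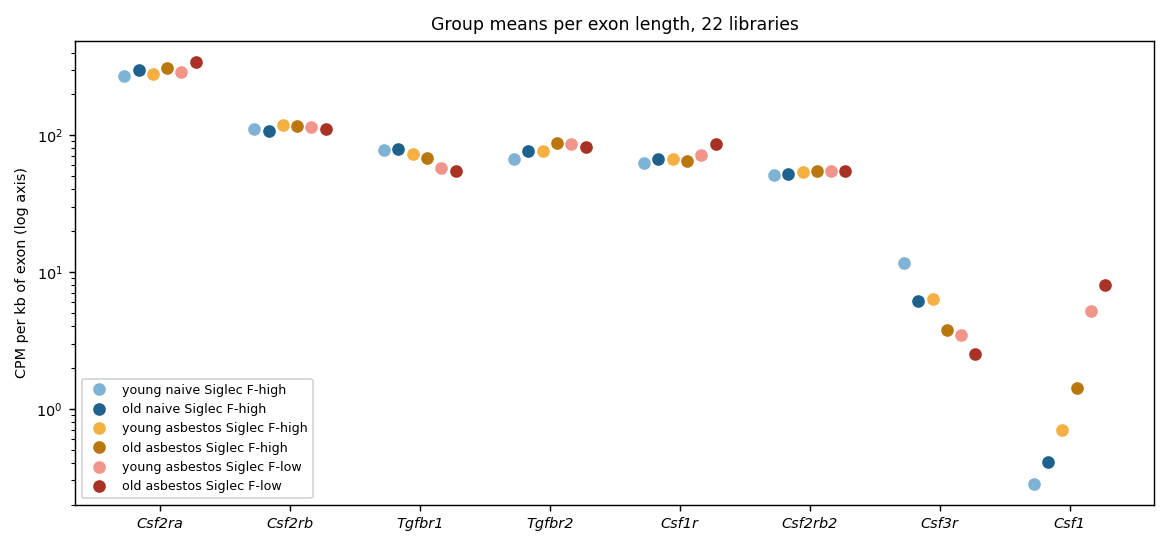
Group means of CPM per kilobase of exon (y axis, log scale) for the 8 genes (x axis) over the 22 libraries, with 1 point per group. Csf2ra stands highest at 269 to 342, the other receptors except Csf3r lie between 51.3 and 117, and Csf3r and Csf1 lie lowest and spread most.

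Levels of different genes were compared per length of exon, as CPM per kilobase over the 22 libraries. The group means of Csf2ra were 269 to 342 and those of Csf2rb 107 to 117, which makes the GM-CSF receptor pair the highest. Csf1r was at 62.9 to 86.0, Tgfbr1 at 54.5 to 78.9, Tgfbr2 at 66.5 to 87.3 and Csf2rb2 at 51.3 to 55.0. Csf3r was at 2.51 to 11.6 and Csf1 at 0.284 to 8.02. The order of the last 2 differed between groups: Csf3r was above Csf1 in every Siglec F-high group, and Csf1 was above Csf3r in both Siglec F-low groups, at 5.21 against 3.45 in young and 8.02 against 2.51 in old animals. That crossing was seen in the group means and was not tested.

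Of 20 listed genes of the GM-CSF family and its signalling, 16 were tested. Over the 7 comparisons, which share groups, 3 of 112 values passed, all higher, beside 2.86% of the values of all genes. With 22 libraries 19 passed, 16 as higher and 3 as lower, beside 7.91%. Socs3, an inhibitor of cytokine signalling, was the 1 gene higher in Siglec F-low macrophages at both ages. It was at 65.8 ± 18.4 CPM (SD, n = 4) against 30.7 ± 3.74 in young asbestos lungs (log2 fold change 1.10 ± 0.20, adjusted p = 0.00155) and at 112 ± 20.4 against 34.5 ± 1.82 in old ones (1.69 ± 0.21, adjusted p = 3.03e-05), and the log2 fold changes with 22 libraries were 1.10 and 1.68. Bhlhe40, a transcription factor of alveolar macrophage self-renewal, was higher in old than in young asbestos Siglec F-high macrophages, 500.0 ± 39.4 against 337 ± 52.3 CPM (0.57 ± 0.12, adjusted p = 0.00648; with 22, 0.52). The list's median difference between the sorts was 0.10 in young and 0.13 in old animals, and -0.01 and 0.07 with 22 libraries. Jak2, the kinase bound to the beta chain, was at 49.1 to 59.9 CPM in the means of all 6 groups, and Spi1, which encodes the macrophage factor PU.1, at 499 to 583.

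Of 24 listed genes of the M-CSF family and its signalling, 21 were tested, and 5 values passed as higher and 1 as lower of 147, beside 2.86% of the values of all genes. With 22 libraries it was 9 and 7, beside 7.91%. Dok2, an adaptor that dampens receptor kinase signals, was higher in old Siglec F-low than in old asbestos Siglec F-high macrophages, 64.5 ± 4.01 against 33.5 ± 7.29 CPM (0.92 ± 0.18, adjusted p = 0.00411; with 22, 0.84). In young animals it did not pass, at 44.5 to 59.2 against 38.0 to 67.9 CPM, the last in the outlying library. Runx1, a blood cell transcription factor, was lower in old Siglec F-low than in old asbestos Siglec F-high macrophages, 273 ± 14.1 against 474 ± 227 CPM (-0.79 ± 0.21, adjusted p = 0.0303). The Siglec F-high mean of Runx1 rests on the outlying replicate 3 at 812 CPM, and without the outlying libraries the log2 fold change was -0.41 ± 0.12 (adjusted p = 0.0276). The median of the list between the sorts was -0.01 in young and -0.17 in old animals.

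The TGF-beta list held 39 genes, of which 34 were tested, and 6 values passed as higher and 3 as lower of 238, beside the same 2.86% over all genes. With 22 libraries it was 14 and 9, beside 7.91%. Ltbp3, which holds latent TGF-beta in the matrix, differed most. It stood at 15.7 ± 2.73 CPM in young and 22.5 ± 7.84 in old Siglec F-low macrophages, against 1.97 ± 0.75 and 2.88 ± 0.88 in the Siglec F-high sorts of asbestos lungs, a log2 fold change of 3.02 ± 0.37 and 3.11 ± 0.38 (adjusted p 1.46e-05 and 2.79e-05; with 22, 3.23 and 3.18). Lrrc32, which anchors latent TGF-beta at the cell surface, was higher in old Siglec F-low macrophages, at 1.93 ± 1.02 against 0.36 ± 0.32 CPM (2.99 ± 0.79, adjusted p = 0.0303; with 22, 3.15). In young animals it did not pass with all libraries, though the sorts lay apart, at 0.94 to 1.43 against 0 to 0.64 CPM. All these levels of Lrrc32 are near the floor of the counts. Eng, a co-receptor of TGF-beta family ligands, was higher in old Siglec F-low macrophages too, at 10.4 ± 1.55 against 4.74 ± 1.04 CPM (1.18 ± 0.27, adjusted p = 0.0108; with 22, 1.22). In young animals Eng differed by 0.79 ± 0.25 and passed with 22 libraries only (1.07 ± 0.23, adjusted p = 0.00279). Smurf1, a ubiquitin ligase that marks SMADs and their receptors, was higher in young Siglec F-low macrophages (0.86 ± 0.25, adjusted p = 0.0438; with 22, 0.59 ± 0.14, adjusted p = 0.0051). In old animals it did not pass with all libraries, at 99.6 to 134 CPM in Siglec F-low against 68.9 to 105 CPM in Siglec F-high libraries.

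Tgfb2, a TGF-beta ligand, was lower in young Siglec F-low macrophages, at 1.33 ± 0.52 against 5.33 ± 3.28 CPM (-1.98 ± 0.50, adjusted p = 0.0208; with 22, -1.49 ± 0.42, adjusted p = 0.0212). In old animals the sorts overlapped, at 0.79 to 3.95 against 2.71 to 11.4 CPM, and it did not pass with all libraries. Pmepa1, a target that feeds back on SMADs, was lower in young Siglec F-low macrophages as well (-1.33 ± 0.35, adjusted p = 0.0265), but its Siglec F-high mean of 118 CPM rests on the outlying library at 263, and with 22 libraries the value was -0.57 ± 0.21 (adjusted p = 0.0792). With age, Smad6, an inhibitory SMAD, was lower in naive macrophages, at 0.21 ± 0.14 against 1.55 ± 0.36 CPM (-2.82 ± 0.64, adjusted p = 0.0174; with 22, -2.82). These levels are near the floor of the counts, with old naive libraries at 0.058, 0.337, 0.332 and 0.118 CPM. In asbestos lungs the ages overlapped in both sorts. Tgfb1, the main ligand, kept to means of 366 to 476 CPM and passed in none of the 7 comparisons with all libraries. With 22 it was higher in old than in young asbestos macrophages, by 0.23 ± 0.06 in Siglec F-high and 0.19 ± 0.05 in Siglec F-low ones (adjusted p 0.0231 and 0.0283). The median of the TGF-beta list between the sorts was -0.01 in young and -0.02 in old animals, and -0.09 and 0.03 with 22 libraries.

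**Figure D4:**
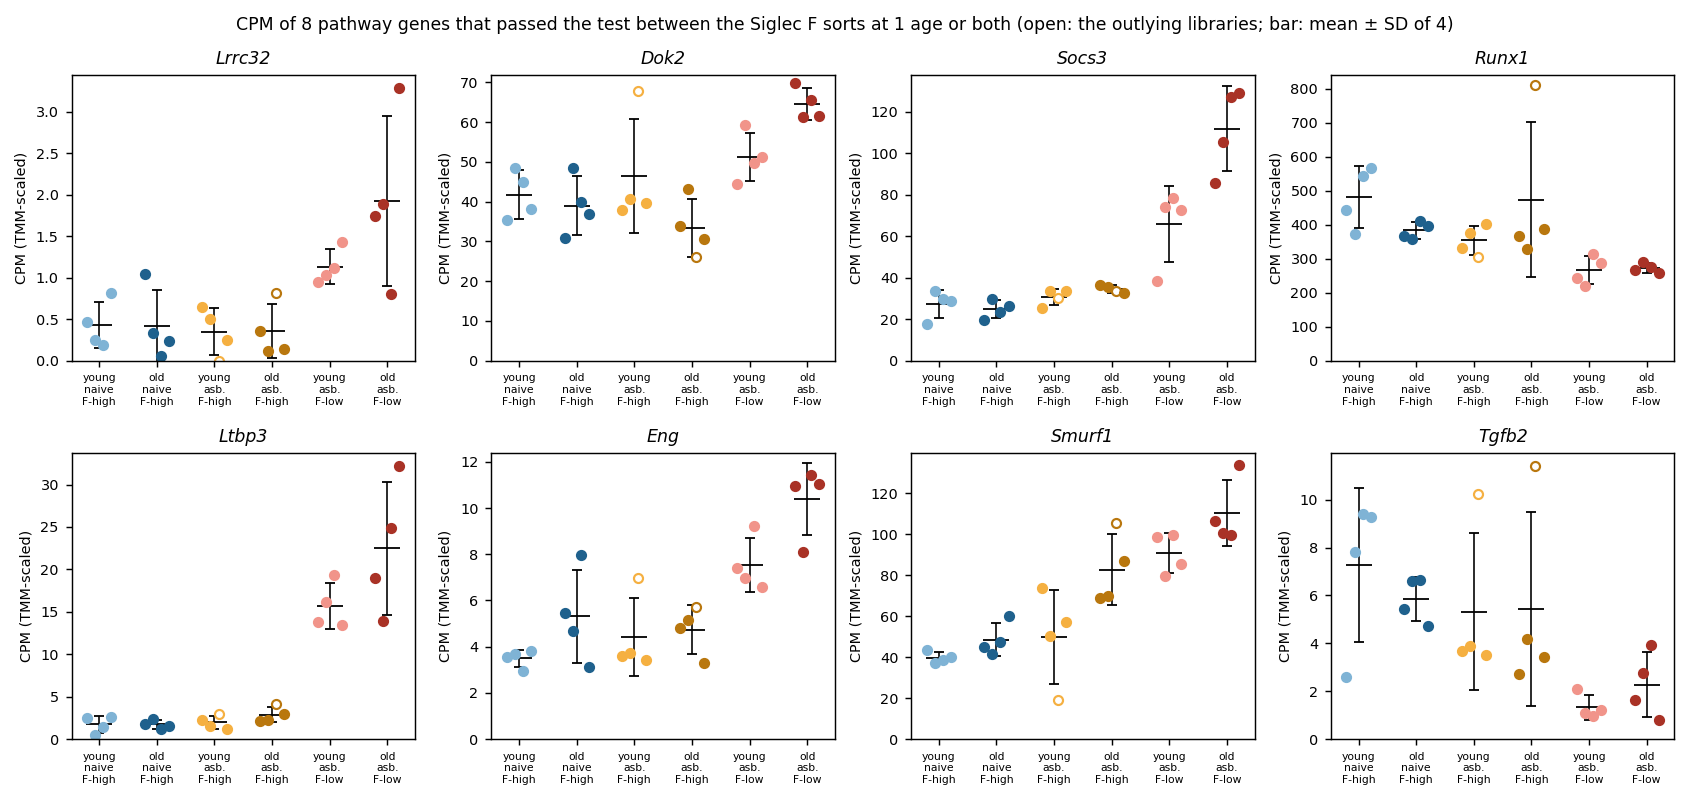
CPM (y axes, from 0) of 8 genes of the pathway lists in each library of the 6 groups (x axis); open circles are the outlying libraries and bars the mean ± SD of 4. Socs3 and Ltbp3 are high in both Siglec F-low groups. The highest asbestos Siglec F-high points of Runx1 (812 CPM) and Tgfb2 (10.2 CPM in young, 11.4 in old animals) are open circles.

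Genes whose pattern was most like that of a member were found by the Pearson correlation of log2 CPM over the 22 libraries, given as a description, since the libraries share groups and sorts. For Csf1 the nearest were Mmp14, a membrane matrix metalloproteinase that is also in the list of monocyte-derived macrophage markers (r = 0.985), C3ar1, the receptor of complement C3a (0.982), and Adam8, a membrane protease (0.981). As their choice by likeness to Csf1 in these libraries makes likely, all 3 were higher in Siglec F-low macrophages at both ages. Their log2 fold changes in young and old animals were 2.65 and 3.22 for Mmp14, 3.60 and 2.98 for C3ar1 and 2.35 and 2.47 for Adam8. For Csf3r the nearest genes were Stk40, a kinase-like gene (0.961), Baz1a, a chromatin remodelling factor (0.954), and Sh3tc1 (0.943). For Tgfbr1 they were Agps (0.932), Prr5l (0.926) and Pilra (0.923).

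The receptors with little difference between groups had weaker neighbours. Those of Csf1r were Itpr1 (0.901), Etfbkmt (0.896) and Prss46 (0.890), those of Csf2ra Ppp1r37 (0.916), Tapbpl (0.861) and Chac1 (0.851), and those of Tgfbr2 Wbp2 (0.882), Cxcr2 (0.866) and Sdc3 (0.866). Prss46 was near the floor of the counts in Siglec F-high macrophages. With 22 libraries its log2 fold changes with age there had SEs of 1.72 in naive and 2.01 in asbestos lungs. Csf2rb went with Spg11 (0.852), Syk (0.846) and Pcmtd1 (0.846), and Csf2rb2 with Gnptab (0.840), St3gal1 (0.785) and Syk (0.773). Among the members, the beta chains correlated at 0.730, Csf1 and Csf1r at 0.765, Csf1 and Csf3r at -0.866, Csf1 and Tgfbr1 at -0.900, and the TGF-beta receptors at -0.487. The alpha chain Csf2ra and the beta chain Csf2rb correlated at 0.220.

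**Figure D5:**
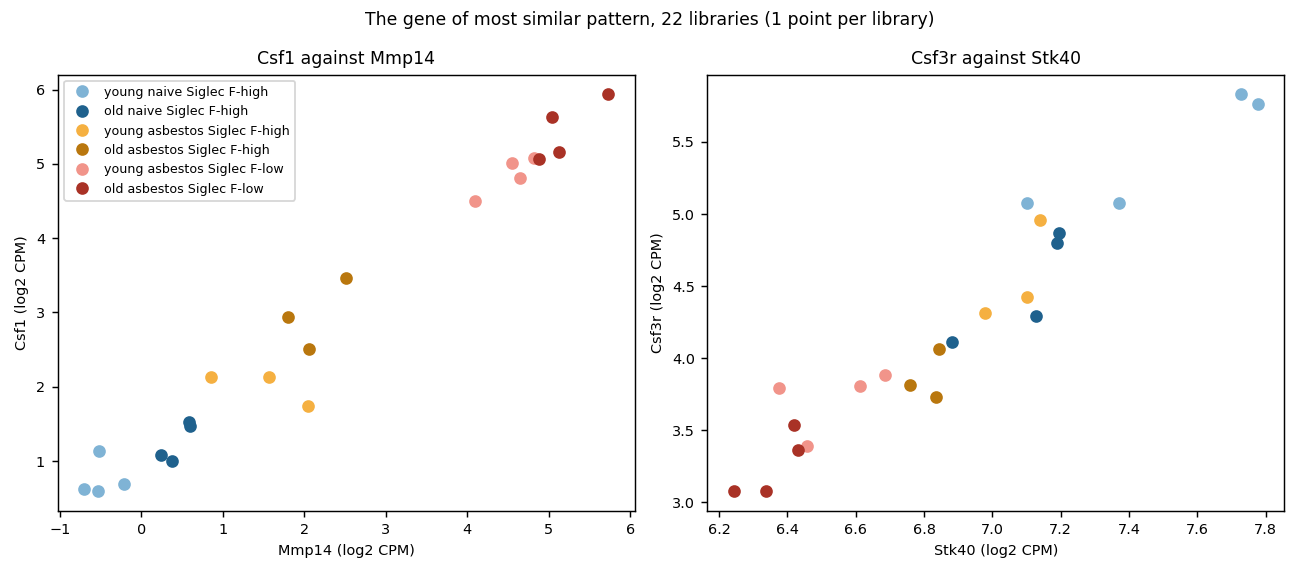
Log2 CPM of Csf1 against Mmp14 (left) and of Csf3r against Stk40 (right) in the 22 libraries, 1 point per library, coloured by group. In the left panel the Siglec F-low libraries lie apart at the top right, and in the right panel the young naive libraries lie at the top and the old Siglec F-low libraries at the bottom.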

How the data were processed

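The authors deposited 1 table of whole-number counts per Ensembl gene for 24 libraries. Per the submitters' processing notes, the tools were bcl2fastq 2.19.1, FastQC, Trimmomatic 0.36, STAR 2.6.0 and HTSeq 0.11.2 with mm10, and per the labels' protocols the RNA was poly(A)-selected. Their settings, the annotation and the strand option are not given in the sources used here.

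Genes were kept with filterByExpr (minimum count 10, minimum total 15), which left 13467. Counts were scaled with TMM and fitted with 1 term per group in edgeR 4.0.16 (R 4.3.3). For 7 comparisons and 2 interactions, quasi-likelihood p-values were adjusted after Benjamini-Hochberg across every tested gene (threshold 0.05). A second fit used 22 libraries and 13629 genes. The SE is the absolute log2 fold change over the square root of F. The interval is at 95%. DESeq2 1.42.0 was an alternative. The code was tested on simulated data. Symbols were found for 42462 IDs and positions for 42546 (GENCODE M21). Log2 CPM used a prior count of 2. All members were named in each comparison. From each pathway list up to 3 called genes in each direction were named, by smallest p, and for each member the 3 genes of highest correlation. Tgfb1, Jak2, Spi1 and the uncalled values beside called ones were chosen after their values were seen. The members, lists and tests were chosen with earlier results of these data known. Promoters came from RefSeq, and those of 6 of the 8 members were used. That of Csf1r was left out of the search, and no entry was used for Csf2rb. Values of some genes in the pathway lists are not reported here, though the lists' counts include them.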

Additional observations from a re-analysis of the deposited data

Results flagged for a closer look

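In 6 of the 48 sets of 4 libraries (8 genes in 6 groups), 1 library stood farther from the others than Dixon's 95% limit allows, where chance gives about 1 in 20. Of these, 3 lay in the outlying libraries: Csf2ra at 127 CPM and Tgfbr2 at 310 CPM in young asbestos Siglec F-high replicate 3, and Csf2rb2 at 364 CPM in old asbestos Siglec F-high replicate 3. The others were Csf1 at 1.95 CPM in young naive replicate 4, Csf2ra at 1151 CPM in old asbestos Siglec F-low replicate 2, and Csf3r at 29.2 CPM in young asbestos Siglec F-high replicate 2. The last of these bears on a call, since the lower Csf3r in young Siglec F-low macrophages did not pass without it (log2 fold change -0.63, adjusted p = 0.0730).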

How the results depend on the processing

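The 72 member values (8 genes, 9 comparisons) had the same call and direction with RLE size factors, with no filter except 1 count, and with an additive replicate block on 24 libraries. DESeq2 added 2 calls (Csf1 after asbestos in young animals, adjusted p = 0.0364; Csf3r, old against young asbestos Siglec F-high, 0.0315). The 22 libraries added 6 calls and lost none. Leaving out 1 library in turn lost 12 calls and added 6 of 1728. No called value changed sign. Values that were not called changed sign in 13 cases with 22 libraries (largest size 0.124) and in 27 with 1 library left out (largest 0.180).

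The number of genes called moved more. For naive age it was 273, and 1094 with 22 libraries, 474 with DESeq2 and 179 to 726 with 1 library left out. In the same order it was 641, 997, 1432 and 314 to 1592 for age in asbestos Siglec F-high, 174, 983, 358 and 77 to 620 for age in Siglec F-low, 256, 690, 594 and 101 to 647 for asbestos in young and 105, 562, 243 and 39 to 411 for asbestos in old animals, 672, 1638, 1133 and 427 to 1158 for the sorts in young and 579, 1578, 924 and 269 to 1543 for the sorts in old animals. The interactions gave 0 genes, 2 each with 22 libraries, 6 for age and sort with DESeq2, and 0 to 2 with 1 library left out. The cause was not tested.

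The replicate numbers are not said to pair animals. Libraries of the same number had deviations that correlated at 0.0733 to 0.186 in old asbestos lungs and at -0.180 to 0.245 in young asbestos lungs. Same-numbered libraries of groups that cannot share an animal ran from -0.286 to 0.243. Those ends were replicate 2 of young naive with young asbestos and with old asbestos Siglec F-high. In the 22 libraries the 3 pairs correlated at 0.150 to 0.205 in old lungs, each over 0.1, and at 0.0854 to 0.319 in young lungs, 1 of them under it. With a replicate block the counts of calls in the same order were 278, 436, 153, 210, 97, 680 and 548. An alternative chosen after seeing the data, the block on 22 libraries, gave 1476, 1347, 1240, 889, 725, 2440 and 1954, and 2 and 14 for the interactions. It also called Csf3r in old against young asbestos Siglec F-high (-0.71, adjusted p = 0.0416) and between the old sorts (-0.68, 0.0431).

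Depth limits Csf1 most, with 10 to 141 counts in the Siglec F-high libraries and 316 to 944 in the Siglec F-low ones. The median SE over genes was 0.24 with 24 libraries and 0.13 to 0.15 with 22.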

Other observations

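Stk40, the gene whose pattern over the 22 libraries was most like that of Csf3r (rank 1 of 13621 genes), lies on the same strand of chromosome 4 and starts 59517 bases beyond the end of Csf3r. This was noticed after the correlations were seen. The other tested genes around it were lower in that ranking. Mrps15, which starts 2485 bases beyond Csf3r, had r = 0.666 (rank 1397), Oscp1 0.805 (rank 443), Lsm10 0.699 (rank 1149), Eva1b 0.866 (rank 156), Sh3d21 0.765 (rank 704) and Thrap3 0.188 (rank 5450). Because Stk40 was picked by its correlation with Csf3r over the 22 libraries, its own fold changes largely follow from that choice. Stk40 was lower in Siglec F-low than in Siglec F-high macrophages of asbestos lungs, by -0.60 ± 0.13 on the log2 scale in young (edgeR adjusted p = 0.00572) and -0.49 ± 0.13 in old animals (adjusted p = 0.0305). With 22 libraries it was lower in old than in young naive macrophages (-0.42 ± 0.11, adjusted p = 0.0189) and in young Siglec F-high ones after asbestos (-0.45 ± 0.12, adjusted p = 0.0303), which with 24 libraries had adjusted p of 0.108 and 0.125.

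Of 9 markers of B cells, another cell type a lung macrophage sort could hold, 3 were lower after asbestos in young Siglec F-high macrophages with all libraries (1.90% of all genes passed in either direction) and 6 with 22 (5.06%), at a median log2 fold change of -1.17 in both fits, while the summed level of the list was 197 to 213 CPM in young naive and 184 to 190 CPM in young asbestos Siglec F-high libraries of the 22. In old animals 3 were lower with 22 libraries (4.12% of all genes). T and NK cell markers summed to 9.04 to 33.9 CPM and fibroblast and endothelial markers to 3.73 to 19.8 CPM over all libraries, and epithelial markers to 171 to 390 CPM. The resident macrophage markers summed to 17173 to 22693 CPM in the naive groups. In the 22 libraries they summed to 25800 to 29788 CPM in young and 38233 to 42763 CPM in old asbestos Siglec F-high macrophages, and to 38284 to 50449 and 54274 to 68843 CPM in the young and old Siglec F-low sorts. Between the sorts 2 of the 14 were higher and 4 lower in young animals (4.99% of all genes passed) and 2 higher and 3 lower in old ones (4.30%).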
